A study of Mus musculus with 7 samples.

Results

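The B cell lineage genes described here are 9 genes chosen by name: Cd79a, Cd79b, Ms4a1, Pax5, Ebf1, Fcmr, Bank1, Cr2 and Ly6d. All 9 had rows in each of the 3 count tables, which list 33864 genes in all and 25469 in common. Single-cell RNA was counted in the pancreas of 7 C57BL/6 mice aged 2 months, with 1 library per mouse. The 2 WT mice were wild type and drank doxycycline at 1 mg/ml with 7.5% sucrose for 7 days. The 3 i4F mice (genotype i4F-B) drank the same and carry an inducible transgene for Oct4, Sox2, Klf4 and c-Myc in the Pparg gene and a ubiquitous reverse tetracycline transactivator (rtTA). The 2 caerulein mice were wild type and received 7 hourly injections of caerulein, a cholecystokinin analogue that inflames the pancreas, at 100 µg/kg on 2 consecutive days. Their labels name no doxycycline, so caerulein and the absence of doxycycline cannot be told apart against WT.

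Cells per library numbered 4327 and 6326 in WT, 9811, 8218 and 7614 in i4F mice, and 15138 and 7039 after caerulein, with 15469018 to 64784216 unique molecular identifiers (UMIs, counted molecules). Between 3 and 39 barcodes were shared by a pair of libraries, at most 0.41% of the smaller one. The library labelled i4F 3 stood apart. It held rtTA at 46.7 CPM (UMIs scaled to a total of 1000000), beside 42.5 and 48.3 CPM in i4F 1 and i4F 2, but had Pou5f1 (Oct4) at 0.194 CPM, against 2.54 and 8.34 CPM in those mice and 0.951 and 0.145 CPM in WT. It had no UMI of Sox2, which had 15 and 40 UMIs in those mice and 0 and 1 in WT. The cells carry the cluster names that the study gave, made separately for each condition. In WT the cluster named B lymphocytes numbered 47 and 111 cells, or 1.09% and 1.75% of the mouse's cells. In i4F mice it numbered 453, 343 and 1290 (4.62%, 4.17% and 16.9%), and after caerulein 994 and 398 (6.57% and 5.65%).

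B lymphocytes carry membrane immunoglobulin as their antigen receptor, and the CD79A and CD79B chains beside it pass the signal into the cell. EBF1 and PAX5 are the transcription factors that set up and hold the B cell programme, and Cd79a is a known target of both. MS4A1 (CD20), FCMR (the Fc receptor for IgM), CR2 (CD21, a complement receptor) and LY6D lie at the cell surface, and BANK1 is a scaffold of B cell receptor signalling. EBF1 is also present in mesenchymal and fat cell precursors, and LY6D in several epithelia and in plasmacytoid dendritic cells. A pancreas holds few B cells, in its tissue and in the lymphoid tissue attached to it.

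In GRCm38 the members lie on 7 chromosomes: Cd79a on chromosome 7 (24897381 to 24902197), Cd79b on 11 (106311341 to 106314762), Ms4a1 on 19 (11249675 to 11266241), Pax5 on 4 (44524757 to 44710487), Ebf1 on 11 (44617317 to 45008091), Fcmr on 1 (130865669 to 130880791), Bank1 on 3 (136053363 to 136326066), Cr2 on 1 (195136811 to 195176716) and Ly6d on 15 (74762056 to 74763620). All are annotated as protein coding in GENCODE vM21. RefSeq promoters of GRCm38 were found for 6 members, and bases ahead of the gene are printed for the 5 whose window starts ahead of the annotated gene, because these genes were detected in the same cells. Cd79b, Ms4a1 and Ly6d had no entry, and both Ebf1 windows lie inside the annotated gene. Capitals mark the E box CAGGTG or its reverse complement, which E proteins bind.
Cd79a, chr7:24897247-24897380, plus strand: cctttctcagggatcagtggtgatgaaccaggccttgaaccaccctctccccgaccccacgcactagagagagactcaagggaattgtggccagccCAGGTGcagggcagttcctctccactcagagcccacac
Pax5, chr4:44710695-44710844, minus strand: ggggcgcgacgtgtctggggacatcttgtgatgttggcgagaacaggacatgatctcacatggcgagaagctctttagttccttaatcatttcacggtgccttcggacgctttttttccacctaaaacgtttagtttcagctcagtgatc
Fcmr, chr1:130865527-130865668, plus strand: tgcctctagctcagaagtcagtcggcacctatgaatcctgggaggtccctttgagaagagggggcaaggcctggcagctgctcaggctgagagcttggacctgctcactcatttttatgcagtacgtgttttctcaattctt
Bank1, chr3:136326067-136326216, minus strand: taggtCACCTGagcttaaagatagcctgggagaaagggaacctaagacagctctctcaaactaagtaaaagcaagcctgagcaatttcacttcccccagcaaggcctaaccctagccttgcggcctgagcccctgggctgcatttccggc
Cr2, chr1:195176720-195176869, minus strand: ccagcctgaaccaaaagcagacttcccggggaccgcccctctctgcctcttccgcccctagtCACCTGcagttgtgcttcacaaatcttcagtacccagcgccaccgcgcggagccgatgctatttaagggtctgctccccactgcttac
The stretches of Cd79a, Bank1 and Cr2 each hold 1 E box and those of Pax5 and Fcmr none. Of all RefSeq promoters, 10.6% hold this E box in the 150 bases before the start and 9.47% in the 134 bases that match the length of the Cd79a stretch. The same stretches were searched on both strands for AGGAAGT (ETS factors), ATGCAAAT (octamer factors) and the palindromic EBF motif, and no match was found. These occur in 5.07%, 0.998% and 0.447% of the 150-base stretches of all promoters. At such rates a match in 5 stretches was unlikely in any case, so its absence says little. The printed stretches end before both the RefSeq start and the annotated gene. Those of Cd79a and Fcmr thus lie further ahead than the stretches of all promoters, which end at the RefSeq start. Over the whole 300-base RefSeq windows Cd79a held 1 ETS match and Fcmr 1 E box. Of all such windows 9.35% hold this ETS motif and 20.2% this E box. For EBF only the exact palindrome was searched. Whether the stretches, that of Cd79a among them, hold an EBF site of another form was not tested.

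In WT and i4F mice the cells named B lymphocytes carried all 9 members, and their ranges overlapped for 7 of the 9 genes, while 34.5% of the 5627 genes tested did not overlap between these conditions. Values are CPM within the cluster, in the order WT 1, WT 2, then i4F 1 to 3. Cd79a stood at 3080.4 and 2352 CPM in WT and at 3124, 2576 and 3534 CPM in i4F mice. Cd79b stood at 1237 and 941 CPM in WT and at 1004, 667 and 1096 CPM in i4F mice. The ranges of both receptor chains overlapped between the conditions. Pax5 had 195 and 64.3 CPM in WT and 186, 218 and 139 CPM in i4F mice. Ebf1 had 509.5 and 374 CPM in WT and 736, 1142 and 637 CPM in i4F mice, every i4F mouse above both WT mice. Ms4a1 had 1033 and 655 CPM in WT and 662, 282 and 699.6 CPM in i4F mice. Fcmr had 426 and 436 CPM in WT and 289, 331 and 712 CPM in i4F mice. The i4F mouse with the most B cells, i4F 3, was the one with the highest Fcmr.
Bank1 had 343 and 264 CPM in WT and 459, 445 and 407 CPM in i4F mice, again without overlap. Cr2 was low in both, at 27.8 and 28.6 CPM in WT and 25.6, 24.7 and 31.0 CPM in i4F mice. Ly6d had 1867 and 1794 CPM in WT and 1281, 598 and 2226 CPM in i4F mice. The i4F 2 mouse was lowest for Cd79b, Ms4a1 and Ly6d.

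None of the 9 members was called different between the i4F and WT clusters named B lymphocytes (UMIs summed per mouse, edgeR quasi-likelihood test over 5627 genes with Benjamini-Hochberg adjustment, threshold 0.05). Among all genes tested 21, or 0.373%, passed. No member had an unadjusted p under 0.05, against 602 genes of the 5627, and DESeq2 called 71 genes and no member. The fitted log2 difference (i4F minus WT) was 0.64 ± 0.29 (SE) for Ebf1, adjusted p = 0.472, and -0.85 ± 0.39 for Ms4a1, adjusted p = 0.479. In cells with at least 500 genes that of Ebf1 turned to -0.18. A p above the threshold does not show equal levels. Clusters were drawn separately in each condition and differed in make-up. Markers of plasma cells summed to 11209.8 and 12189 CPM in the WT cluster and to 193, 124 and 200.4 CPM in the i4F cluster. The part of this difference in the levels of the members was not tested.

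**Figure D1:**
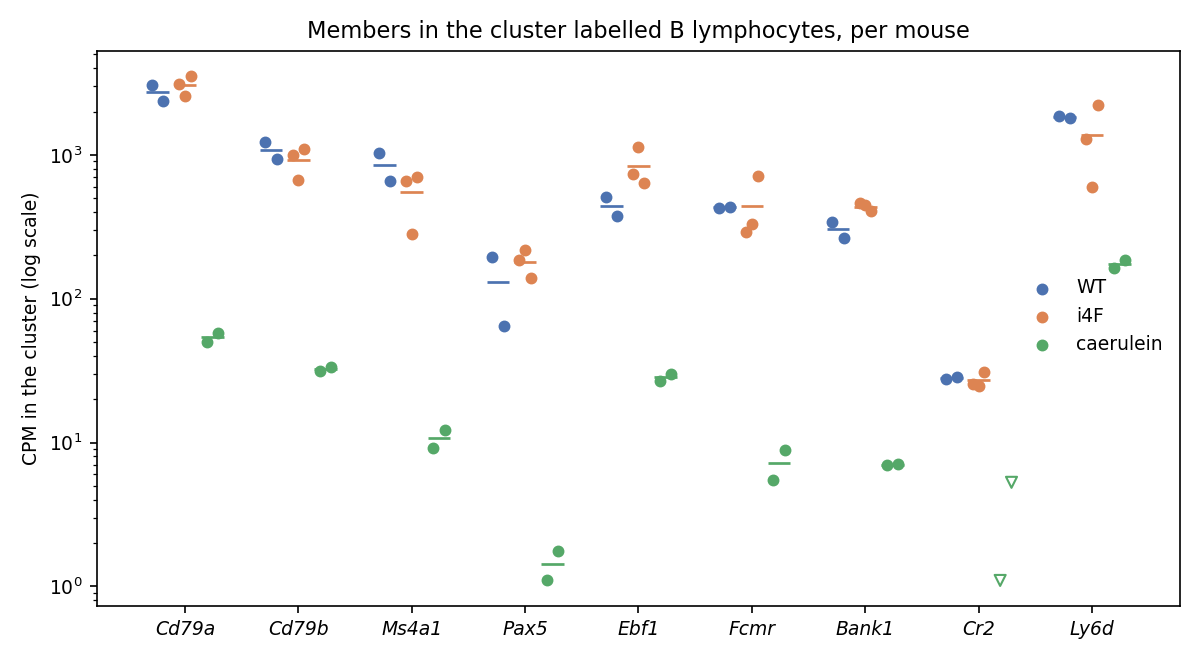
CPM of each member (log scale) in the cluster named B lymphocytes, with 1 point per mouse and a bar at the mean of each condition; open triangles mark 0 UMIs and are drawn at the level of 3 UMIs. For all 9 genes the 2 caerulein mice sit below every WT and i4F mouse, as in Cd79a at 50.0 and 58.1 CPM against 2352 to 3534 CPM.

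The caerulein cluster with the same name held little of any member. Cd79a stood at 50.0 and 58.1 CPM and Cd79b at 31.6 and 33.5 CPM in caerulein 1 and caerulein 2. Pax5 had 1.10 and 1.76 CPM and Ebf1 26.8 and 30.0 CPM. Ms4a1 had 9.19 and 12.3 CPM, Fcmr 5.52 and 8.81 CPM, and Bank1 6.99 and 7.05 CPM. Both caerulein mice were below all 5 other mice for each of these genes. Of all genes tested in the cluster, 63.8% did not overlap between caerulein and WT and 62.7% between caerulein and i4F, in either direction. Cr2 had no UMI in either mouse, where 3 UMIs over both would be 0.913 CPM. Ly6d stood at 164 and 187 CPM.
All 9 members were lower in the caerulein cluster than in the WT cluster, against 8.28% of the 5627 genes tested that were called lower. They were also lower than in the i4F cluster, against 16.6% of all genes called lower. With a term for the library series, 8 of the 9 were called lower than in i4F, all but Ly6d, beside 0.8% of all genes called in either direction. All i4F libraries are of 1 series and both caerulein libraries of the other, so that term rests on WT 1 against WT 2 alone. Members nearly absent after caerulein, such as Cr2 and Pax5 (3 and 1 UMIs), could pass the filter on low counts only through WT and i4F mice. Such genes could hardly be called higher, so the shares over all genes are not a matched background. The log2 difference from WT was -5.95 ± 0.33 (SE) for Cd79a, 61.8-fold lower, with an adjusted p of 6.18e-05 in edgeR's quasi-likelihood test. It was -6.74 ± 0.64 for Pax5 (adjusted p = 0.000531) and -6.62 ± 0.58 for Ms4a1 (adjusted p = 0.000357). Cd79b was lower by 41.1-fold, Fcmr by 79.9-fold and Bank1 by 51.6-fold. Ebf1 was lower by 19.0-fold and Ly6d by 12.9-fold, with adjusted p = 0.000357 and 0.00359. Against i4F the log2 differences of the 8 members other than Cr2 ran from -3.04 ± 0.54 for Ly6d (adjusted p = 0.00401) to -7.01 ± 0.61 for Pax5 (adjusted p = 0.000267). Cr2 was at least 31.0-fold lower than in WT, where it had 18 UMIs, and at least 32.3-fold lower than in i4F mice, where it had 72. These bounds take 3 UMIs over both caerulein mice and rest mainly on caerulein 1: with caerulein 2 alone they are at least 5.36-fold and 5.59-fold.
Clusters were drawn separately in each condition, so these differences compare cells under 1 name, not 1 cell type. The study named clusters by their significant markers, and members such as Cd79a were among the leading genes of the WT and i4F clusters. Those cells may thus have got their name through high levels of these genes. The p-values describe how the named clusters differ and are no independent test of the members.

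**Figure D2:**
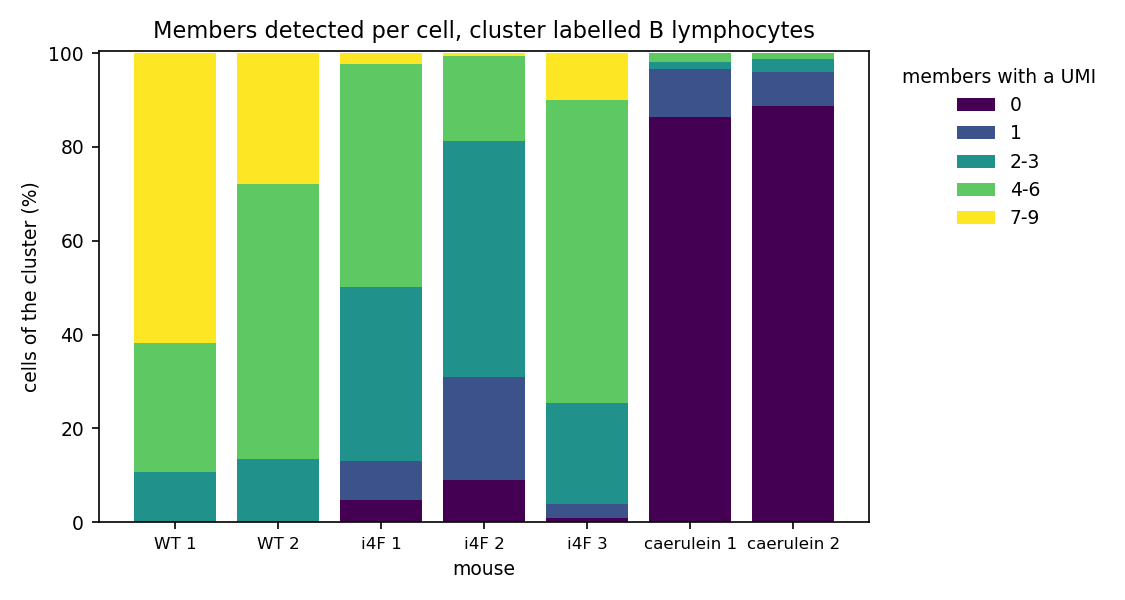
Cells of the cluster named B lymphocytes in each mouse (%), split by how many of the 9 members had at least 1 UMI in the cell. In the caerulein mice 86.3% and 88.7% of the cells had none, and in the WT mice every cell had at least 2.

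Counted cell by cell, all WT cells of the cluster carried Cd79a and at least 2 members. In i4F mice 87.0%, 69.1% and 96.0% of the cells had at least 2 members. In the caerulein mice 34 of 994 cells (3.42%, exact 95% interval 2.38 to 4.75%) and 16 of 398 cells (4.02%, 2.32 to 6.45%) did. No member at all was detected in 858 of the 994 and 353 of the 398 caerulein cells, 86.3% and 88.7%. The other 102 and 29 caerulein cells had 1 member.
Depth differed between the clusters. The median cell had 2886 and 2066 UMIs in WT, 627, 467 and 1039 UMIs in i4F and 2205.5 and 1181 UMIs in caerulein mice. With every cell thinned to 500 UMIs, which dropped 1 and 0 cells in WT, 118, 203 and 39 in i4F mice and 62 and 59 after caerulein, the share with at least 2 members was 89.1% and 78.4% in WT. It was 83.0%, 76.4% and 85.4% in i4F, and 2.04% and 2.36% in caerulein mice. Thinning thus brought the i4F and WT shares into 1 range and left the caerulein shares far below it.
The share of cells with a Cd79a UMI was 100.0% in both WT mice, 83.9%, 69.7% and 93.7% in i4F mice, and 3.42% and 2.51% in caerulein mice. Thinned, it was 87.0% and 72.1%, then 78.5%, 70.7% and 79.9%, then 1.93% and 1.77%. Acinar cells, which should lack the gene, had a Cd79a UMI in 0.0% to 1.36% of cells, at median depths of 431 to 2213.5 UMIs. In the caerulein mice that acinar share was 0.13% and 0.0%, so that the cluster still stood above it.

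The caerulein cluster was led by other genes. Genes were ranked by CPM over that of the remaining cells of the condition, with 10 CPM added to both. The first 4 genes of the caerulein cluster were H2-Eb1, H2-Aa, H2-Ab1 and Cd74, which present antigen on MHC class II in B cells, dendritic cells and macrophages alike. Igkc and Ighm, an immunoglobulin light and heavy chain, came next, followed by H2-DMb1, which loads peptides onto MHC class II, and Klrd1, a receptor of NK cells and some dendritic cells. By this ranking no member was among the 10 leading genes of the caerulein cluster. Without the added 10 CPM the order in each cluster would differ. The i4F cluster was led by Cd79a, Cd79b, Ly6d, Ms4a1, Bank1 and Fcmr in that order, and the WT cluster by Igkc, Ighm and Jchain, with Cd79a and Ly6d also among its 10 leading genes.
Marker lists of other cell types differed between the clusters, some of them without overlap between caerulein and the other conditions. The summed level of 5 macrophage markers was 4206 and 3579 CPM in the caerulein cluster, none of the 5 at 0, against 0.0 and 11.9 CPM in WT and 94.6 to 701 CPM in i4F mice. The 10 dendritic cell markers summed to 673 and 507 CPM there with none at 0, against 284 and 454 CPM in WT, where 6 and 8 of the 10 were at 0, and 598 to 875 CPM in i4F mice, where 1 to 7 were at 0. The B cell marker list, which holds no member, summed to 285 and 324 CPM in caerulein against 1653 and 2386 CPM in WT and 2043 to 2751 CPM in i4F mice. T cell markers summed to 151 and 136 CPM against 6.99 to 88.6 CPM in the other 5 mice. Plasma cell markers summed to 11209.8 and 12189 CPM in WT and 123 to 212 CPM in the other 5 mice, so that plasma cell RNA was far higher in the WT cluster than in the i4F and caerulein clusters. Stellate, pericyte and fibroblast markers summed to 916 and 537 CPM in the caerulein cluster and 32.4 to 1041 CPM in the rest. In the 102 and 29 caerulein cells with 1 member, this list summed to 4007 and 3371 CPM and the macrophage list to 2896 and 1429 CPM. Markers of plasmacytoid dendritic cells summed there to 1246 and 2724 CPM and the B cell list to 184 and 313 CPM. The part of these cell types in the lower level of the members was not tested.
Among only the cells with at least 2 members, which were chosen after the data were seen, no member was called between caerulein and the other conditions, nor were more than 12 of the 5210 genes tested. There the caerulein arm was 1 mouse of 34 cells, since caerulein 2 had under 20, and its spread was taken to be that of the other mice. In that fit the log2 difference from WT was -0.92 ± 0.34 for Cd79a (adjusted p = 0.523) and -0.04 ± 0.55 for Ly6d (adjusted p = 0.989). The cells were selected by the members themselves, so these values are a description of the cells that remain.

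Part of the Ly6d in the caerulein cluster lay in cells that carried Siglech, which marks plasmacytoid dendritic cells. In caerulein 1, 27 of the 43 cells with Siglech had a Ly6d UMI (exact 95% interval 46.7 to 77.0%) and held 210 of the 447 Ly6d UMIs of the cluster, 47.0%. In caerulein 2, 16 of 20 such cells did (56.3 to 94.3%) and held 69 of 106 UMIs, 65.1%. None of these cells had a UMI of Cd79a, Ms4a1, Pax5, Ebf1, Fcmr or Bank1, and 3 and 1 of them had Cd79b. The i4F cluster held a few such cells too: all 24 cells with Siglech in i4F 3 and 5 of 8 in i4F 1 had Ly6d, with 10.1% and 5.64% of the cluster's Ly6d UMIs. WT B lymphocytes and i4F 2 had no cell with Siglech. Among WT 2 macrophages 1 of the 24 cells with Siglech had Ly6d, and it held all 40 Ly6d UMIs of these macrophages. Of the macrophages with Siglech, 0 of 3 in WT 1, 0 of 1 in i4F 2 and 0 of 4 in i4F 3 had Ly6d. In caerulein 1 it was 3 of 3 and in caerulein 2 it was 1 of 1. The 4 plasmacytoid markers found in the tables summed to 569 and 585 CPM in the caerulein cluster against 114 to 429 CPM in the others.

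Lists of other B cell genes, which hold none of the 9 members, were counted in the same cluster and are set beside the 8.28% of all genes that were lower than in WT. Genes nearly absent after caerulein, such as Fcer2a at 0.775 CPM, could pass the filter on low counts only through the other conditions. Such genes could hardly be called higher, so the shares over all genes are not a matched background. Of 26 tested genes of B cell surface and signalling, 13 were lower in caerulein than in WT and none higher, with a median log2 difference of -1.12 against -0.04 over all genes. Cd22, a sialic acid receptor that restrains B cell receptor signalling, fell by 4.97 on the log2 scale (adjusted p = 0.00143) and Tnfrsf13c, the receptor for the survival factor BAFF, by 4.87 (adjusted p = 0.00039). Of 15 B cell transcription factors 9 were lower and 1 higher. Pou2af1, a coactivator of octamer factors, fell by 5.58 (adjusted p = 0.000357), and Spi1 (PU.1), which macrophages and dendritic cells also use, rose by 3.39 (adjusted p = 0.0038). Of 10 follicular and homing genes 8 were lower, with a median of -4.39: Fcer2a (CD23) fell by 6.94 (adjusted p = 0.00164), Ighd (IgD) fell by 6.44 (adjusted p = 0.000114) and Cxcr5, the homing receptor for follicles, by 6.07 (adjusted p = 0.000545). Of 6 marginal zone and B1 genes 5 were lower, among them Mzb1, which serves immunoglobulin secretion and fell by 4.73 (adjusted p = 0.00279). The single early B cell gene tested, Cd93, which is also on myeloid and endothelial cells, rose by 2.22 (adjusted p = 0.0429). No germinal centre gene passed the filter on low counts.
Against i4F, where 16.6% of all genes were lower, the counts were 16 lower of 26 surface genes, 11 lower and 1 higher of 15 transcription factors, 10 lower of 10 follicular genes and 4 lower of 6 marginal zone and B1 genes. Between i4F and WT no gene of these lists was called, and 0.373% of all genes were. All these p-values are from the edgeR fits named above, with the limit given there for clusters named by their markers.

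The i4F mice had a second B cell cluster, named follicular B lymphocytes, of 24, 27 and 67 cells. It split the members. Cd79a was present at 809, 339 and 774 CPM, Cd79b at 265, 116 and 301 CPM and Ly6d at 1255, 1063 and 642 CPM. Fcmr was lower at 104, 46.2 and 43.4 CPM and Ms4a1 lower still at 58.2, 7.70 and 30.3 CPM. Pax5 had 0.0, 0.0 and 6.50 CPM, Ebf1 12.9, 0.0 and 21.7 CPM, and Bank1 12.9, 0.0 and 2.17 CPM, and Cr2 had no UMI. Its leading genes were Ighg2b, Jchain, Igkc and Ighm, and Jchain, which joins secreted immunoglobulin, averaged 16469 CPM against 12.9 CPM in the other i4F cells. In the cells labelled follicular, Cr2 was thus not detected and Ms4a1 was low, while the plasma cell markers summed to 15440.3 to 20724 CPM with none at 0.

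**Figure D3:**
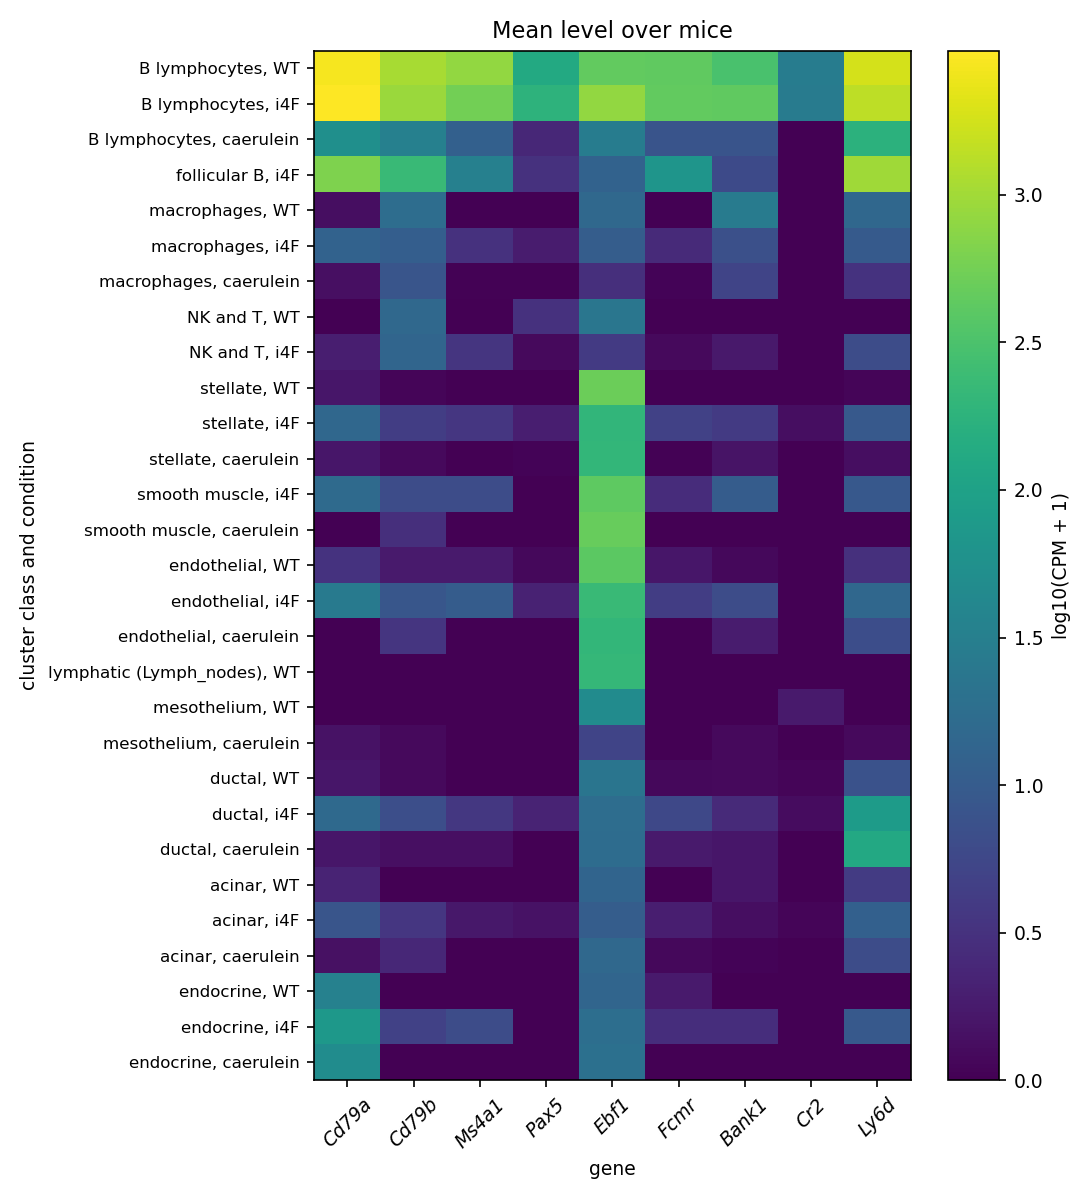
Mean level of each member over the mice of a condition, as log10(CPM + 1), in each class of clusters. The members are bright in the WT and i4F B lymphocytes, Cr2 the least with means of 28.2 and 27.1 CPM. Ebf1 is bright in stellate, smooth muscle and endothelial cells as well. Ly6d is also seen in i4F and caerulein ductal cells, at means of 80.5 and 126 CPM against 1830.5 and 1368 CPM in WT and i4F B lymphocytes.

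Most Ebf1 lay outside the B cell clusters in every mouse. Of its UMIs, 2.82% and 2.66% in WT, 4.62%, 5.52% and 42.2% in i4F and 1.31% and 0.912% in caerulein mice lay in the B lymphocytes cluster. For Cd79a that share was 74.3% to 94.5% and for Ms4a1 83.8% to 100.0%. In WT it was 65.3% to 100.0% for all members but Ebf1. In the caerulein mice it was 31.6% and 30.2% for Cd79b, 16.8% and 11.8% for Bank1 and 60.0% and 38.4% for Ly6d, which also was at 34.0% in i4F 2. Stellate cells, the matrix-forming mesenchymal cells of the pancreas, held Ebf1 at 507 CPM in WT 1 and with 4564 of 9127167 UMIs in WT 2, 144 CPM, 158 CPM and 284 CPM in i4F 1 to 3, and 178 and 224 CPM in caerulein mice. Both WT mice were above all 5 other mice, and 36.2% of the genes with at least 10 UMIs in stellate cells likewise did not overlap, in either direction. In endothelial cells Ebf1 had 410.3 and 404 CPM in WT, 179, 202 and 314 CPM in i4F and 211 CPM in caerulein 1, with the same order, and caerulein 2 had 63 of 315054 UMIs. In endothelial cells 19.6% of genes did not overlap.
Fitted on stellate cells alone, a comparison added after the data were seen, Ebf1 was lower in i4F than in WT, with a log2 difference of -1.20 ± 0.32 (edgeR, adjusted p = 0.0426, 20.6% of 14818 genes called). In caerulein mice the difference was -1.18 ± 0.36, which missed the threshold (adjusted p = 0.063). By the study's names most WT stellate cells were quiescent and all i4F and caerulein ones activated. The WT cells named activated, 114 and 161 in number, had Ebf1 at 609 and 591 CPM, above the 7.52 to 323 CPM of the activated clusters in the other 5 mice. How many of all genes likewise did not overlap in these clusters was not counted. Cells under this name differed among themselves: both ends of that range, in i4F 1 and i4F 3, came from the same named cluster. The part of activation in the level of Ebf1 was not tested.

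Ductal cells held Ly6d as well. Ductal Ly6d stood at 8.26 and 5.02 CPM in WT, 130.4, 83.8 and 27.4 CPM in i4F and 85.9 and 167 CPM in caerulein mice, without overlap between WT and the rest, as was the case for 24.7% of the 15885 genes with at least 10 UMIs in ductal cells. Between 0.664% and 0.966% of WT ductal cells had a UMI, against 3.42% to 11.8% of i4F and 9.88% and 11.8% of caerulein ductal cells, at medians of 2667 to 5590 UMIs. On ductal cells alone, also added after the data were seen, Ly6d was higher in caerulein by 4.38 ± 0.74 on the log2 scale (edgeR, adjusted p = 0.028), where 3.53% of 11619 genes were called. The i4F difference was 3.77 ± 0.71 (adjusted p = 0.19). In i4F 1, i4F 2 and both caerulein mice the ductal cells held 68 to 213 Ly6d UMIs beside 0 to 3 Cd79a UMIs. In i4F 3 they held 57 beside 86, a ratio of 0.663, against 0.63 in its own B lymphocytes.
Cd79a, Cd79b and Ly6d were also found in other classes of that library. Cd79b per Cd79a UMI was 0.308 in acinar, 0.372 in ductal, 0.243 in stellate and 0.409 in endothelial cells, against 0.31 in its B lymphocytes, but 0.919 in macrophages and 0.087 in endocrine cells. Ly6d per Cd79a UMI was 0.538 in acinar, 0.642 in stellate and 0.773 in endothelial cells, against 0.946 in macrophages and 0.196 in endocrine cells. The source of these UMIs was not tested. Cd79a stood at 18.0 to 41.4 CPM in its acinar, ductal, stellate and endothelial cells, against 0.0 to 4.06 CPM in those cells of WT and caerulein mice. Its 993 NK and T cells had 4 Cd79a UMIs, or 2.94 CPM. The other i4F mice were at 1.23 to 2.55 CPM in acinar, ductal and stellate cells, but their endothelial cells had 36.3 CPM in i4F 1, above i4F 3, and 12.2 CPM in i4F 2.

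**Figure D4:**
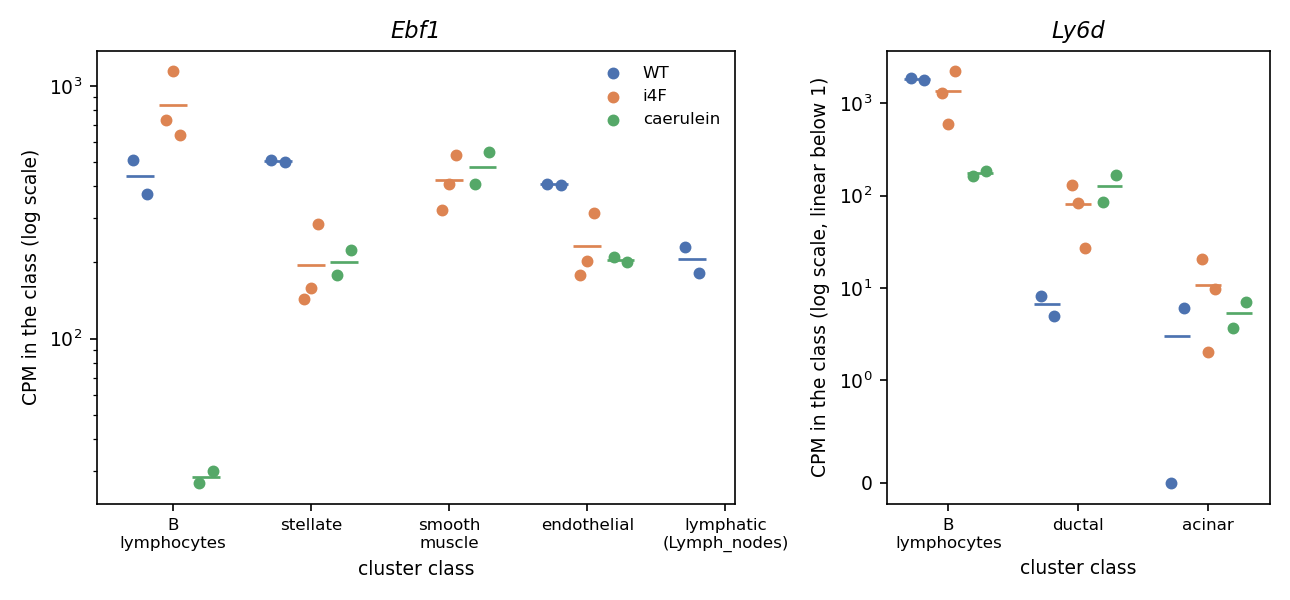
CPM of Ebf1 (left, log scale) and Ly6d (right, log scale that is linear below 1) in selected classes, with 1 point per mouse and a bar at the mean of each condition. Stellate Ebf1 in the WT mice, 507 CPM in WT 1, is above the other 5 mice, which reach at most 284 CPM, and ductal Ly6d is under 10 CPM in WT and at 27.4 to 167 CPM elsewhere.

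Other members, too, appeared away from B cells. Cd79a was present in the endocrine cells of all 7 mice, at 40.6 and 25.9 CPM in WT, 33.7, 52.8 and 128 CPM in i4F and 46.6 and 51.1 CPM in caerulein mice. In all mice but i4F 3 these cells had no UMI of Cd79b, Ms4a1, Pax5 or Ly6d. Within WT most of it lay in 1 of the 2 endocrine clusters, at 64.6 and 40.9 CPM against 5.57 and 2.10 CPM in the other. Cd79b and Bank1 were present in the WT cluster Macrophages_1, at 24.9 and 22.9 CPM and at 35.6 and 54.7 CPM, where Cd79a had no UMI in 45 and 418 cells. In caerulein 1 macrophages 154 of 7619 cells had a Cd79b UMI, and 1 of them had Cd79a.

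Cells with UMIs of both Cd79a and Cd79b numbered 40 and 91 in WT, 252, 89 and 886 in i4F, and 21 and 4 in caerulein mice. They made up 0.924% and 1.44% of all WT cells, 2.57%, 1.08% and 11.6% of i4F cells, and 0.139% and 0.0568% of caerulein cells. Both caerulein mice were under every other mouse, and i4F 3 was far above the rest. The mean of i4F was 5.10% ± 5.71 (SD, n = 3) and that of WT 1.18% ± 0.364 (SD, n = 2), exact permutation p = 0.4, adjusted p = 0.4 over 4 shares. Caerulein had 0.0978% ± 0.0579 (SD, n = 2), exact permutation p = 0.33 against WT, the smallest that 2 against 2 mice can give. Within the cluster named B lymphocytes such cells were 85.1% and 81.1% in WT, 46.1%, 20.4% and 61.6% in i4F and 2.01% and 1.01% in caerulein mice. With each cell thinned to 500 UMIs these shares were 43.5% and 37.8% in WT, 37.9%, 17.9% and 34.9% in i4F and 0.751% and 0.885% in caerulein mice. Then i4F 1 lay just above WT 2, while i4F 2 and i4F 3 stayed below both WT mice. The caerulein shares were still the lowest. At full depth the caerulein shares were lower than those of i4F with an exact p of 0.2 and than those of WT with an exact p of 0.33, in both cases the smallest these numbers of mice allow, and the adjusted p was 0.4 for both (two-sided permutation tests). Outside the B cell clusters lay 0 and 1 of the double-positive cells in WT, 30, 8 and 42 in i4F, and 1 and 0 in caerulein mice. Without i4F 3 the i4F excess over WT in all cells shrank from 3.91 to 0.644 percentage points.
Within double-positive cells the 6 other members that passed the filter on low counts were set against WT. None was called in i4F or in caerulein mice, and 0.0% of the 5162 genes passed in either fit, with 338 and 467 genes at an unadjusted p under 0.05 and 48 and 17 called by DESeq2. The caerulein arm was caerulein 1 alone with 21 cells, as caerulein 2 had 4, so that this fit takes the spread of caerulein mice to be that of the others and says little about them. There Ebf1 was at -1.72 ± 0.52 and Bank1 at -1.94 ± 0.66 (log2), with adjusted p = 0.544 and 0.545 in edgeR. In i4F mice Ms4a1 was at -1.25 ± 0.56 (adjusted p = 0.705). It was at -0.57 ± 0.39 (adjusted p = 0.799) with only the double-positive cells of the B lymphocytes cluster, a fit added after the data were seen, and at -0.52 ± 0.68 (adjusted p = 0.755) in all cells with Cd79a. The double-positive cells outside the B cell clusters held 255541 of the 559618 UMIs of such cells in i4F 1, with macrophage markers at 2731 CPM and stellate, pericyte and fibroblast markers at 3256 CPM. Over all double-positive cells the macrophage markers summed to 344 to 1574 CPM in i4F mice against 0.0 and 10.1 CPM in WT. The stellate list summed to 548 to 1656 CPM in i4F mice against 30.6 and 1090 CPM in WT. Plasma cell markers went the other way, at 2078, 5446 and 4427 CPM in i4F mice against 12349 and 13268 CPM in WT. The part of these cell types beyond those 2 fits was not tested.

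Summed over all cells of a mouse, where fewer B cells and less RNA per cell cannot be told apart, Cd79a had 42.0 and 50.6 CPM in WT, 27.7, 17.3 and 461 CPM in i4F and 2.82 and 2.57 CPM in caerulein mice. The caerulein mice were lowest, and i4F 3 was above all other mice while i4F 1 and i4F 2 were under both WT mice. Over all cells 75.4% of the 18340 genes did not overlap between caerulein and WT, and 53.7% did not between i4F and WT. Ms4a1 followed with 13.3 and 13.5 CPM in WT, 5.39, 1.80 and 87.3 CPM in i4F and 0.448 and 0.409 CPM in caerulein mice. Pax5 had 2.50 and 1.41 CPM, then 1.47, 1.48 and 17.9 CPM, then 0.0772 and 0.117 CPM. Ebf1 had 232 and 287 CPM in WT, 113, 111 and 176 CPM in i4F and 85.7 and 109 CPM in caerulein mice.
None of the 9 members was called in i4F against WT, where 0.0% of 18340 genes passed in edgeR (6383 at an unadjusted p under 0.05, 4351 called by DESeq2). In caerulein against WT none was called either, while 9.08% of all genes were. There Cd79a was at -3.70 ± 1.58 (adjusted p = 0.134), Ms4a1 at -4.53 ± 1.85 (adjusted p = 0.123), Pax5 at -3.96 ± 1.58 (adjusted p = 0.118) and Ebf1 at -1.04 ± 0.31 (adjusted p = 0.0688). Both counts changed without i4F 3. Then 8 members were called lower in caerulein than in WT, where 46.4% of all genes were called in either direction. In i4F mice 3 members were called lower than in WT, where 49.8% of all genes were called, and the i4F difference of Cd79a went from 2.23 ± 1.40 (adjusted p = 0.281) to -0.66 ± 0.28 (adjusted p = 0.0878). DESeq2 called 3 members lower in caerulein with all mice, and 29.9% of all genes in either direction.
In all cells 10 of 27 surface and signalling genes were higher in caerulein and 1 lower. Among those that rose, which myeloid cells also use, were Vav1 and Btk, both signalling proteins, by 3.19 and 2.99 on the log2 scale (adjusted p = 0.0279 and 0.0364) and Dok3, an adaptor, by 3.09 (adjusted p = 0.0279). Cd81, a tetraspanin of many cell types, fell by 1.23 (adjusted p = 0.0408), and Cd9 of the marginal zone and B1 list, another tetraspanin, by 1.33 (adjusted p = 0.0403).

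Over the 92 groups of at least 20 cells of 1 library and 1 cluster, the genes whose log2(CPM + 10) ran most closely with that of the 9 members summed were Iglc3 (Pearson r = 0.726), Tnfrsf13c (0.716) and Fcrla (0.705). Cacna1e, Pkig, Mzb1, Gm30211, Iglc2 and Pou2af1 followed at 0.668 to 0.702. The sum was carried into stellate and endothelial groups by Ebf1, whose own r with it was 0.759. Without Ebf1 in the sum, Tnfrsf13c reached 0.888, Iglc3 0.886 and Fcrla 0.874, while Ebf1 fell to 0.100. Groups of 1 library share its depth and its free RNA, and each of the other 8 members is part of the sum.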

How the data were processed

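Single-cell 3′ RNA libraries (10x Genomics) of 7 mouse pancreata were aligned to GRCm38 by the authors. The deposited UMI counts per gene and cell are whole numbers; the sources do not say whether the authors' SoupX correction of free RNA precedes them. The authors kept cells with at least 150 genes, clustered each condition separately in Seurat and named the clusters, and the deposited cell table gives the percent of mitochondrial UMIs, at most 5%. Samples were grouped by GEO's labels. UMIs of a mouse were summed per cluster, per Cd79a+Cd79b+ cells or over all cells, and tested with the edgeR 4.0.16 quasi-likelihood test in R 4.3.3 (TMM, filterByExpr, Benjamini-Hochberg over all genes, threshold 0.05). Mice with under 20 cells of the cluster or under 10 double-positive cells were dropped. A CPM is UMIs over all UMIs of the same cells. SE is the log2 difference over the square root of F. Shares were compared by exact two-sided permutation over mice. Shares of cells carry exact (Clopper-Pearson) 95% intervals, which cover counting error only, and 3 UMIs is the limit for a count of 0. Totals of 15469018 to 64784216 UMIs per library set the precision.

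The members and gene lists were chosen with earlier results of these data known. Named genes were the 9 members, the called genes of the lists with the largest change, and the 10 genes most like the members, of which 1 is not reported here. The fits were repeated in DESeq2 1.42.0, without TMM, without the filter, with 2 groups only, with the replicate block, with a term for the series in the library names, on cells of 500 or more genes, and without each mouse. Shares were recomputed after thinning to 500 UMIs. No doublet caller was run, and the nearest setting was to leave out the 5% of cells with most UMIs. That cut left 452 of 453 cells of the B lymphocytes cluster in i4F 1 and 984 of 994 in caerulein 1, so it says little about doublets there. Scripts were tested on simulated data. No row was found for any of the 8 acinar markers, which were not analysed here. Motif shares cover 32851 RefSeq promoters.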

Additional observations from a re-analysis of the deposited data

How the results depend on the processing

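In the cluster named B lymphocytes all 9 members were called lower in caerulein than in WT with any i4F mouse left out. There 15.6% to 21.6% of all genes were called in either direction. With any WT or i4F mouse left out all 9 were called lower than in i4F, beside 22.8% to 33.5% of all genes. Over every left-out mouse the log2 difference of Cd79a ran from -5.98 to -5.79 against WT and from -6.04 to -5.73 against i4F. That of Ly6d ran from -3.71 to -3.51 and from -3.43 to -2.43. Ly6d against i4F missed the threshold without caerulein 1 (-2.95, adjusted p = 0.054 in edgeR) and with the library series as a term (-3.17, adjusted p = 0.172). Among cells with at least 2 members, an alternative chosen after seeing the data, 0 members were called against either condition, as were 0 and 12 of 5210 genes, and Ly6d against i4F turned to 0.54. Ebf1 in i4F against WT turned to -0.18 in cells with at least 500 genes.

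Over all cells, where 0 members were called in caerulein against WT, DESeq2 called 3 (and 29.9% of all genes), the fit without TMM 1 (15.9%), the fit of 2 groups only 7 of 8 (46.1%), and the added fit without the B lymphocyte clusters 1 of 7 (7.81%), all of them lower. The added fit of ductal cells called 1 of 2, Ly6d, which was higher (3.53%). Leaving out a mouse gave 0 to 8 members in caerulein and 0 to 3 in i4F, the highest counts both without i4F 3 (46.4% and 49.8% of all genes). The added stellate fit called 1 member in i4F (20.6%). The i4F difference of Cd79a ran from -0.66 to 2.77 over the left-out mice. Causes were not tested.

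Deviations of same-numbered mice from the mean of their condition had correlations of -0.37 to 0.11. In a condition of 2 mice these deviations mirror each other, so this check is weak and does not exclude a pairing. With the replicate block 2 members were called in i4F (44.4% of all genes) and 8 in caerulein (40.5%) over all cells, Cd79a in i4F turned to -0.69, and 3 of 6 members were called in i4F double-positive cells (5.46%). It changed no other count. With a mouse left out, the difference in double-positive share ran from 0.644 to 5.92 percentage points between i4F and WT and from -1.34 to -0.827 between caerulein and WT, and over the other settings (thinning, at least 2 members, cells of 500 or more genes, no top 5%) from 2.30 to 7.67 and from -1.53 to -0.651. Within the cluster, the caerulein difference with a mouse left out ran from -52.4 to -31.8 against i4F and from -83.6 to -79.6 against WT, and over the other settings from -80.3 to -29.4 and from -96.3 to -39.8. The value nearest 0 over those settings was that after thinning in each case.

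Depth limits Pax5 and Cr2 most, with few UMIs per mouse. Library series, treatment and mouse cannot be told apart fully: WT 1 and all i4F libraries share one series and WT 2 and both caerulein libraries the other.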
